A study of Homo sapiens with 22 samples.

Results

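PC9-GR3 and PC9-GR2 cells (GR3 and GR2) were compared after treatment with the same EGFR inhibitor, WZ4002. Both are derivatives of PC9, an established human non-small cell lung cancer line whose growth needs its mutant, constantly active EGFR. The comparison rests on 4 of the 22 libraries of the series, the 2 labelled GR3 with WZ4002 and the 2 labelled GR2 with WZ4002, and a difference is the mean of log2(CPM + 1) in GR3 minus that in GR2. CPM is the read count of a gene scaled by the read total of its library. The other libraries hold GR2 and GR3 in vehicle, parental PC9 in vehicle, gefitinib or WZ4002, and drug-tolerant PC9 cells with and without inhibitor, in 11 groups of 2. The series asks by which different routes PC9 cells come to resist EGFR inhibitors. WZ4002 was labelled at a dose of 1 mM for 24 h, a unit that is in doubt, and the dose label is the same for GR2 and GR3. How the derivatives were raised, whether each is 1 clone and whether the paired libraries come from separate cultures are not given in the labels, so the p-values reflect only how far these libraries lie apart, which can be technical.

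EGFR is a receptor tyrosine kinase that drives growth through the RAS-ERK cascade and survival through PI3K and AKT. WZ4002 binds mutant EGFR covalently, whereas gefitinib binds it reversibly. When EGFR signalling is blocked, ERK-dependent transcripts such as the phosphatase DUSP6 are lost, FOXO transcription factors are freed from AKT and enter the nucleus, and BIM, the product of BCL2L11, accumulates and triggers mitochondrial apoptosis. BIM is a BH3-only protein, a class that binds and neutralises survival proteins of the BCL2 family such as MCL1. Cells that survive such a block often carry other active receptor kinases, AXL among them, or have shifted from an epithelial towards a mesenchymal state.

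The promoters of 3 genes are shown because their transcripts differed between GR3 and GR2 under WZ4002 and hold letters of a factor class named above or of AP-1, the FOS and JUN dimer downstream of ERK. They are from RefSeq, build GRCh38.p14, and run from 250 bases before to 50 bases after the annotated start, 5′ to 3′ on the strand of the gene. Capitals mark the match. BCL2L11 lies at chr2:111120664-111120963 on the plus strand, SEMA5B, a semaphorin of axon guidance, at chr3:123028556-123028855 on the minus strand, and VTCN1, the T-cell inhibitory ligand B7-H4, at chr1:117210878-117211177 on the minus strand.
BCL2L11: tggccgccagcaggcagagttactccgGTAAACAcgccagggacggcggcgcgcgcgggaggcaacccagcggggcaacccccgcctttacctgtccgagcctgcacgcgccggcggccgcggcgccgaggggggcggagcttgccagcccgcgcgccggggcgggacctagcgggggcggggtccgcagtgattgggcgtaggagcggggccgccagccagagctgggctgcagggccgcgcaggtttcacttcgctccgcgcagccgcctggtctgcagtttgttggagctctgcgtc
SEMA5B: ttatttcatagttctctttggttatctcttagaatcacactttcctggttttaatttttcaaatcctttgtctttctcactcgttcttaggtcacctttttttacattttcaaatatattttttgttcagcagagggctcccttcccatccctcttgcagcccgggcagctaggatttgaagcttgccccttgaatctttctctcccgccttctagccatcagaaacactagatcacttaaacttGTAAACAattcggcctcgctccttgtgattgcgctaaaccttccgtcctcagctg
VTCN1: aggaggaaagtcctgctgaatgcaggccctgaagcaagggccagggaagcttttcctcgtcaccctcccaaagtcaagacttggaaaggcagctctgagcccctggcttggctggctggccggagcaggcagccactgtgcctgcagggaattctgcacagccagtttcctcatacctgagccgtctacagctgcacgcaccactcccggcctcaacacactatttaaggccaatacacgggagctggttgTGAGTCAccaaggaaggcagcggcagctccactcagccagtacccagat
The FOXO letters GTAAACA, searched on both strands, begin at position 28 of the BCL2L11 window and at position 246 of the SEMA5B window, across the annotated start. They occurred in 3.41% of all 27305 promoters of the same length and in 2.34% of the 10717 promoters of tested genes that were matched by symbol. TGAGTCA, the other-strand reading of the AP-1 letters TGACTCA, begins at position 252 of the VTCN1 window, and the AP-1 letters occurred in 4.92% of all promoters. A match is a description of the sequence, and binding was not measured.

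Under the inhibitor, GR3 differed from GR2 in 5179 of 15485 genes tested (33.4%) at an adjusted p under 0.05 in limma. Of these, 2509 genes (16.2%) were higher and 2670 (17.2%) lower in GR3, and the median difference over all genes was 0.02. Adjusted p-values, written p beside a single gene, are limma's with Benjamini-Hochberg adjustment, and errors are standard errors. Single-gene differences passed with each of the 4 libraries left out unless a library is named. A difference of at least 2-fold was passed by 770 higher genes (4.97%) and 948 lower genes (6.12%), and one of at least 4-fold by 323 genes. Both GR3 libraries lay above both GR2 libraries for 35.1% of genes and below them for 33.8%, so that 68.9% of genes did not overlap. For 69.3% of genes the 95% interval of the difference lay within 1 log2 unit of 0. The count of passing genes was 3258 without the second GR2 library and 3812 to 3971 without another of the 4, and no passing gene changed sign in those fits.

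Depth was 23.6 to 49.6 M reads over the 22 libraries, and the listed genes took up 14.4 to 31.8 M of them. Of the epithelial markers 7 of 7 were listed, and their summed level was 7211 to 7787 CPM in GR2 and 5690 to 6290 CPM in GR3. They speak to an epithelial identity and not to the labelled lung origin. Markers of other cells were low. The 3 of 8 leukocyte markers listed summed to 3.48 to 8.68 CPM in GR2 and 12.6 to 16.5 CPM in GR3, the 4 of 6 endothelial markers to 8.56 to 9.73 and 6.84 to 9.74 CPM, and the 4 of 8 fibroblast markers to 11.8 to 12.2 and 10.4 to 15.9 CPM. Of the 3 leukocyte markers 2 were higher and 1 lower in GR3, and 0 of the endothelial and fibroblast markers tested passed. Their part in the results was not tested, and in bulk RNA fewer cells of a type and less RNA per cell cannot be told apart. The deposited table lists genes with at least 1 read in each of the 22 libraries, so a gene silent in any group was not analysed here. The paired libraries differed by more than sampling noise, the chi-square averaged over genes being 24.4 in GR2 and 48.4 in GR3, and were counted as 2 samples.

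The largest differences in GR3's favour were led by AOC1, the diamine oxidase that degrades histamine. It stood at 5.68 and 6.63 CPM in GR2 and at 146 and 202 CPM in GR3, a difference of 4.60 ± 0.55 (SE, adjusted p = 1.39e-05). AXL, the receptor kinase for GAS6, stood at 5.36 and 2.69 CPM in GR2 and at 145 and 81.3 CPM in GR3, which is 28.1-fold on the means and 4.50 ± 0.27 on the log2 scale (adjusted p = 1.86e-08). The groups did not overlap for either gene, which the rule for the 15 largest differences required. GAS6, the AXL ligand itself, was 20.5-fold higher, from 3.48 and 1.96 to 67.5 and 44.1 CPM (3.93 ± 0.35, adjusted p = 7.77e-07). A receptor and its ligand were thus among the 15 largest differences upward.

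Several of these genes were close to silent in GR2, with every GR2 value under 0.3 CPM, so no fold is given for them and the log2 difference is understated by the pseudocount of 1. GLI2, a transcription factor of the Hedgehog pathway, measured 0.14 and 0.06 CPM in GR2 against 26.1 and 25.03 CPM in GR3 (4.59 ± 0.36, adjusted p = 2.48e-07). CACNA1D, a pore subunit of L-type calcium channels, measured 0.07 and 0.03 CPM against 17.2 and 13.0 CPM (3.93 ± 0.16, adjusted p = 3.68e-10). PLAGL1, an imprinted zinc-finger gene, measured 0.04 and 0.08 CPM against 14.9 and 13.7 CPM (3.85 ± 0.26). In GLI2, CACNA1D and PLAGL1 the 2 libraries of each population were close and far from those of the other. STXBP6, a SNARE-binding protein, TENM2, a teneurin adhesion protein, and SH3BGRL, a small thioredoxin-like protein, showed the same arrangement, with differences of 4.38, 4.10 and 3.91 and GR2 values of at most 0.25 CPM.

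The remaining genes of the upper 15 had measurable levels in GR2. COL5A1, a fibrillar collagen chain, stood at 0.64 and 0.62 CPM in GR2 and at 42.0 and 20.6 CPM in GR3 (4.23 ± 0.30). CDK14, a cyclin-dependent kinase linked to WNT signalling, was 24.7-fold higher, at 16.4 and 21.7 CPM against 0.67 and 0.87 CPM (3.49 ± 0.31, adjusted p = 7.94e-07). OXTR, the oxytocin receptor, was uneven between the GR3 libraries, at 10.6 and 58.7 CPM against 0.99 and 0.81 CPM in GR2, and its difference of 3.79 ± 0.52 ranged from 2.61 to 4.98 with a library left out. HCP5, a transcript of the MHC class I region, GPNMB, a transmembrane glycoprotein of melanosomes and macrophages, and MAPT, the microtubule protein tau, were higher by 3.77, 3.58 and 3.46.

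**Figure D1:**
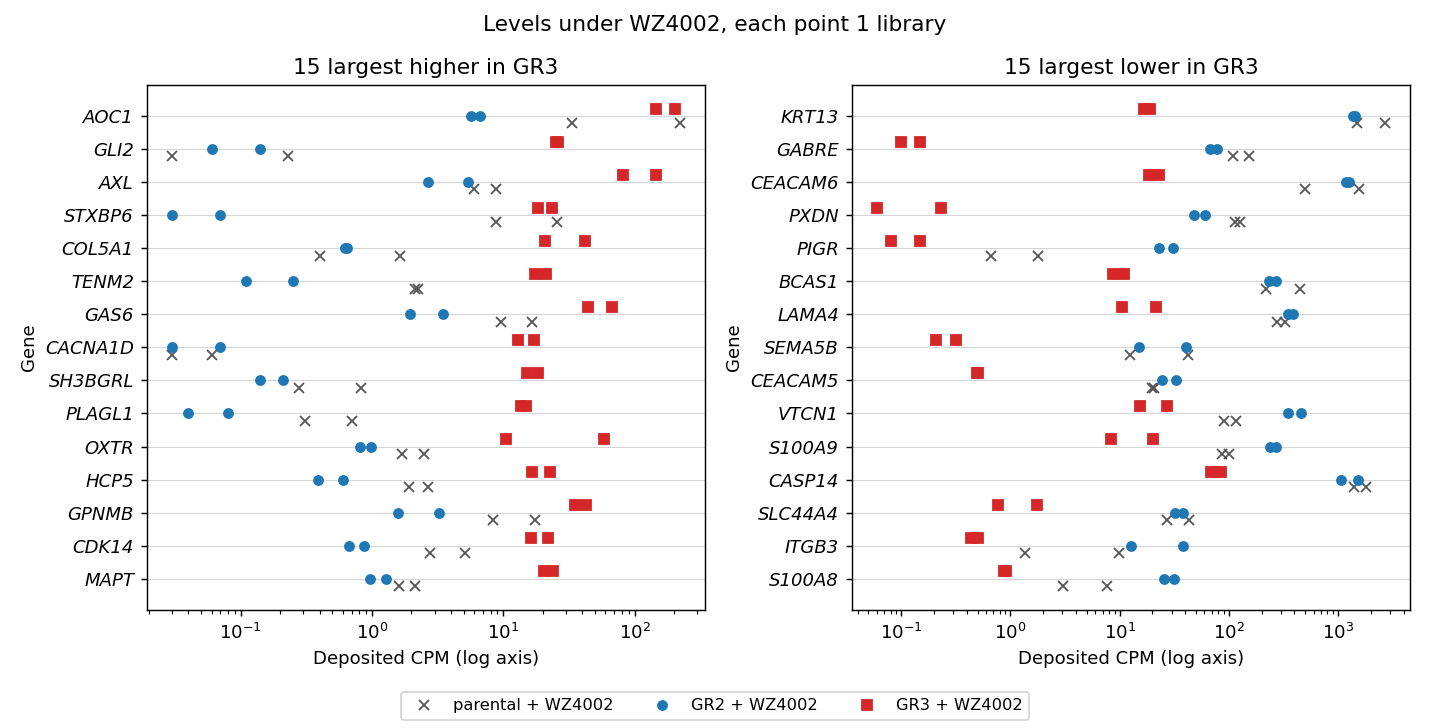
Deposited CPM (log axis) of the 15 largest differences in each direction, with 1 point per library, for parental PC9 (crosses), GR2 (circles) and GR3 (squares) under WZ4002. The GR3 points lie on 1 side of both GR2 points in all 30 genes because the rule that chose them required it. AXL stands at 81.3 to 145 CPM in GR3 against 2.69 to 5.36 CPM in GR2.

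In the opposite direction, the 4 largest differences were those of KRT13, GABRE, CEACAM6 and PXDN. KRT13, a keratin of mucosal surfaces, stood at 1385 and 1426 CPM in GR2 and at 16.9 and 18.95 CPM in GR3, 78.5-fold lower on the means (-6.22 ± 0.26, adjusted p = 4.39e-10). CEACAM6, a cell-surface glycoprotein of the carcinoembryonic antigen family, was 59.0-fold lower, at 22.8 and 18.5 CPM against 1175 and 1258 CPM (-5.82 ± 0.35). Its relative CEACAM5 was 57.5-fold lower (-4.29 ± 0.38), and the 2 are close copies whose reads the counting could in part have split. CASP14, a caspase of epidermal differentiation, was 16.9-fold lower, at 69.1 and 85.4 CPM against 1061 and 1546 CPM (-4.04 ± 0.33). PIGR, the receptor that carries IgA across epithelia, measured 23.1 and 30.9 CPM in GR2 and 0.15 and 0.08 CPM in GR3 (-4.64 ± 0.32, adjusted p = 6.82e-08), so that GR3 held a few reads of it.

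S100A9 and S100A8, which pair to form calprotectin, were lower by 17.8-fold and 32.0-fold. S100A9 stood at 271 and 237 CPM in GR2 and at 20.2 and 8.37 CPM in GR3 (-4.17 ± 0.43), and S100A8 at 25.7 and 31.5 CPM and at 0.91 and 0.88 CPM (-3.96 ± 0.36). LAMA4, a laminin chain of basement membranes, was lower, at 21.6 and 10.6 CPM in GR3 against 349 and 392 CPM in GR2 (-4.52 ± 0.24). PXDN, a peroxidase that crosslinks collagen IV, measured 60.7 and 48.3 CPM in GR2 and 0.06 and 0.23 CPM in GR3 (-5.59 ± 0.16, adjusted p = 3.18e-12). VTCN1 was 19.1-fold lower, at 27.1 and 15.4 CPM against 353 and 461 CPM (-4.23 ± 0.53, adjusted p = 2.01e-05). SEMA5B was at 15.2 and 40.4 CPM in GR2 and at 0.32 and 0.21 CPM in GR3 (-4.36 ± 0.42), the GR2 libraries being unequal. GABRE, a GABA receptor subunit, BCAS1, a gene first described in amplified breast cancer DNA, SLC44A4, a choline transporter-like protein, and ITGB3, the integrin beta 3 chain, completed the lower 15 with differences of -6.03, -4.55, -4.02 and -3.99.

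**Figure D2:**
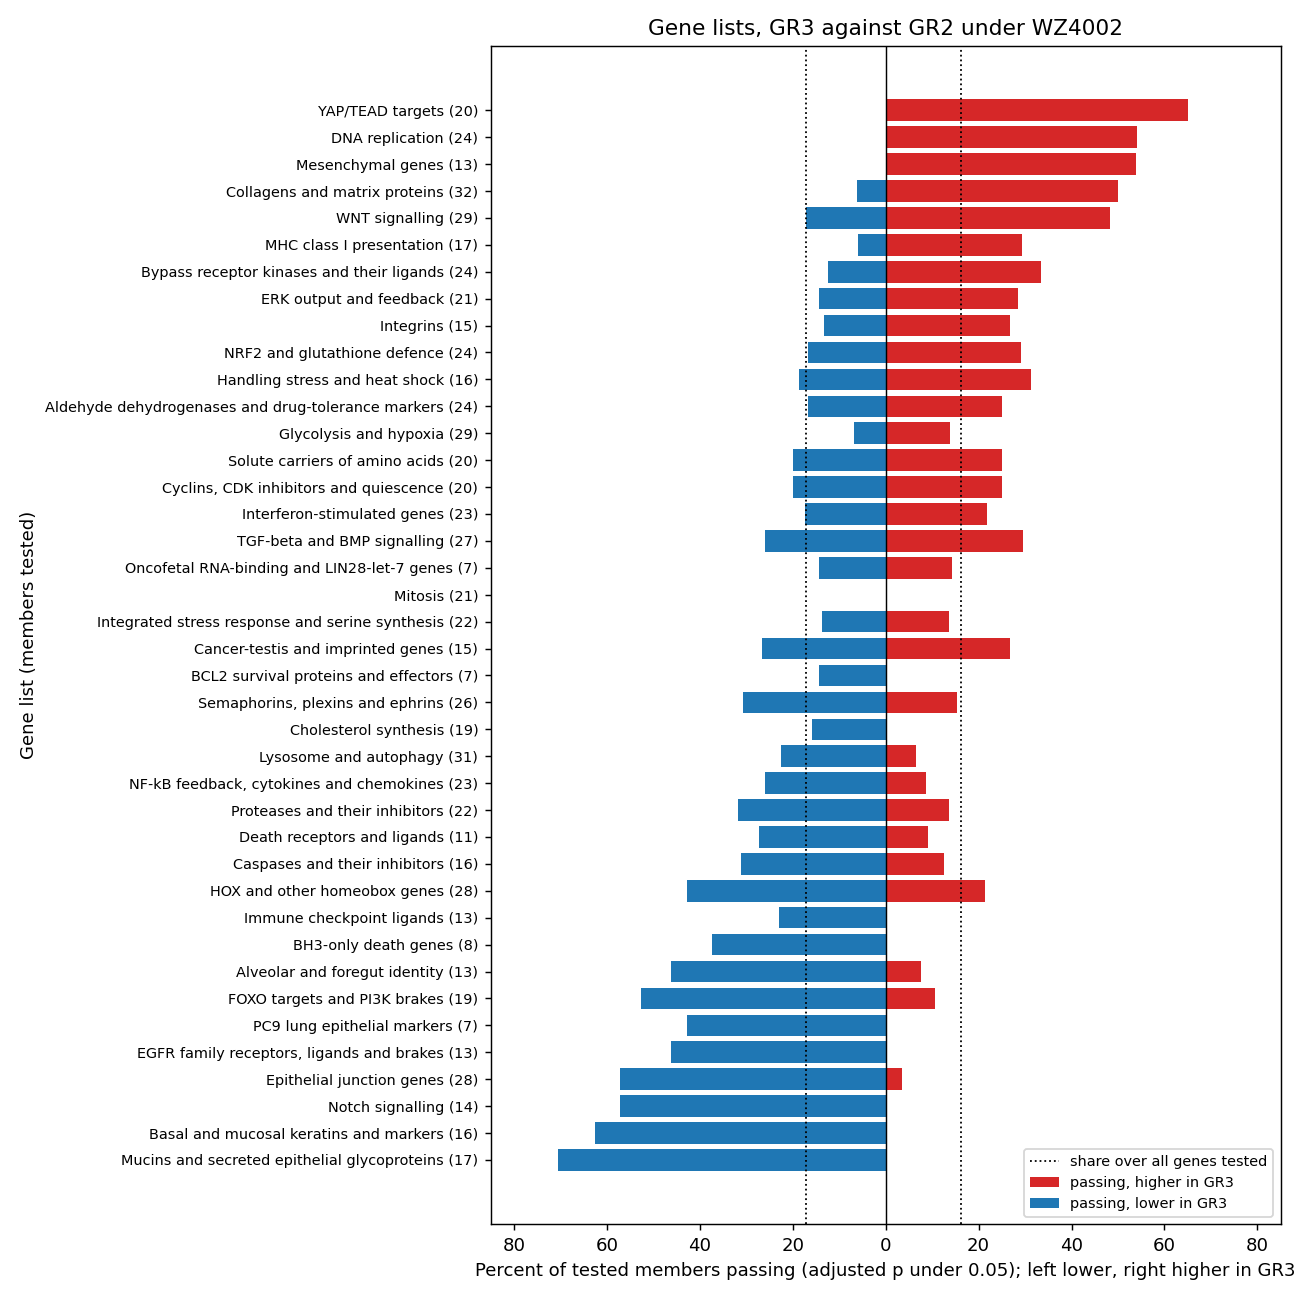
Share of the tested members of each gene list passing at an adjusted p under 0.05, lower in GR3 to the left and higher to the right, with dotted lines at the share over all genes (17.2% lower, 16.2% higher). YAP/TEAD targets, DNA replication genes and mesenchymal genes extend furthest to the right. Mucins, keratins with other basal and mucosal markers, Notch and junction genes extend furthest to the left.

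Gene lists were read by their counts and medians beside the shares over all genes (16.2% higher, 17.2% lower, median 0.02), and several lists share genes. The receptor at the head of the pathway was itself lower in GR3. EGFR stood at 976 and 1281 CPM in GR2 and at 536 and 373 CPM in GR3, 2.48-fold lower without overlap (-1.32 ± 0.24, adjusted p = 0.000663). Its partner ERBB2, which has no ligand of its own, was 1.92-fold lower (206 and 201 CPM against 109 and 103 CPM, -0.94 ± 0.20, adjusted p = 0.00197). Of 13 tested members of the EGFR family list, comprising receptors, ligands and brakes, 6 were lower and 0 higher in limma, with a median of -0.52. Leaving out 1 library brought the 6 to between 2 (without the first GR3 library) and 4. EREG, the ligand epiregulin, was at 4.58 and 3.50 CPM in GR2 and 0.35 and 1.16 CPM in GR3 (-1.55), and did not pass without the first GR3 library or without either GR2 library (adjusted p up to 0.153).

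ERK output was low in both populations under the inhibitor. DUSP6, the phosphatase that ERK induces against itself, measured 0.60 and 1.29 CPM in GR2 and 0.32 and 0.08 CPM in GR3, after 276 and 267 CPM and 35.2 and 56.8 CPM in vehicle. The difference under WZ4002 was -0.68 ± 0.41 (adjusted p = 0.223, 95% interval -1.56 to 0.20). Over the 21 ERK output and feedback genes tested, 6 were higher and 3 lower, and these counts ranged from 2 to 4 and from 0 to 4 with a library left out. CCND1, which encodes cyclin D1, kept its call with each library left out. It stood at 35.8 and 40.8 CPM in GR2 and at 140 and 175 CPM in GR3, 4.11-fold higher (2.01 ± 0.27, adjusted p = 3.76e-05).

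Genes that FOXO factors induce, with brakes on PI3K, were mostly lower in GR3. Of 19 tested, 10 were lower and 2 higher, with a median of -0.56, and the 10 became 6 without the second GR2 library. PIK3IP1, an inhibitor of PI3K, stood at 245 and 227 CPM in GR2 and at 37.4 and 27.1 CPM in GR3, 7.31-fold lower (-2.85 ± 0.46, adjusted p = 0.000212). DEPP1, a FOXO-induced gene of autophagy, was 3.20-fold lower, at 85.1 and 90.3 CPM against 267 and 295 CPM (-1.67 ± 0.36). INSR, the insulin receptor, was 2.72-fold lower, at 37.9 and 37.7 CPM against 86.0 and 120 CPM (-1.40 ± 0.20). In these 3 genes the GR3 libraries were close to each other and well below GR2. SESN1, a sestrin that restrains mTORC1, stood at 21.5 and 18.8 CPM in GR2 and at 5.65 and 3.94 CPM in GR3 (-1.88 ± 0.20), and FOXO4 itself at 36.6 and 42.0 CPM and at 17.6 and 14.9 CPM (-1.23 ± 0.23). SESN3, another sestrin and FOXO target, was higher, at 21.6 and 11.1 CPM against 2.20 and 1.43 CPM (2.57 ± 0.36, adjusted p = 5.37e-05). Of the 16 list genes with a promoter in the RefSeq table, the FOXO letters stood in 2, DEPP1 and FOXO4.

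Among the apoptosis genes, BCL2L11 was lower in GR3. It stood at 83.5 and 75.2 CPM in GR2 and at 29.9 and 34.9 CPM in GR3, 2.45-fold lower without overlap (-1.27 ± 0.18, adjusted p = 6.63e-05), and at -1.38 to -1.16 with each library left out. In vehicle the order was the reverse, 12.3 and 13.3 CPM in GR2 and 19.6 and 30.4 CPM in GR3 (0.88 ± 0.18, adjusted p = 0.00141). WZ4002 raised it by 2.54 ± 0.18 in GR2 (adjusted p = 3.20e-08), while in GR3 the change was 0.39 ± 0.18 (adjusted p = 0.131). The responses themselves differed by -2.15 ± 0.25 (adjusted p = 9.01e-05).

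Of the 8 BH3-only genes tested, 3 were lower and 0 higher in GR3, with all 8 estimates below 0. Beside BCL2L11 these were PMAIP1 and BIK. PMAIP1, which encodes NOXA, stood at 26.7 and 36.7 CPM in GR2 and at 16.6 and 15.01 CPM in GR3 (-0.95 ± 0.23), but at -0.72 with an adjusted p of 0.0807 without the second GR2 library. BIK was at 3.30 and 1.71 CPM against 0.65 and 0.80 CPM (-0.99 ± 0.26), and at -0.65 with an adjusted p of 0.112 without the first GR2 library. BMF, released from the cytoskeleton on detachment, measured 94.9 and 71.0 CPM in GR2 and 58.9 and 34.4 CPM in GR3 (-0.85 ± 0.48, adjusted p = 0.188). BBC3, encoding PUMA, showed -0.51 ± 0.28 (adjusted p = 0.183), and BID, BAD and HRK showed -0.15, -0.11 and -0.07, none of which passed.

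Among survival proteins and effectors of the BCL2 family, 1 of 7 passed. MCL1, a short-lived survival protein that BIM binds, stood at 217 and 223 CPM in GR2 and at 136 and 141 CPM in GR3 (-0.67 ± 0.13, adjusted p = 0.000949). BCL2L1, which encodes BCL-XL, measured 53.4 and 67.5 CPM against 67.0 and 88.1 CPM (0.35 ± 0.16, adjusted p = 0.111), and its groups overlapped. The drop in BCL2L1 with WZ4002 was larger in GR2, where vehicle values were 241 and 239 CPM, and the difference of responses was 1.45 ± 0.23 (adjusted p = 0.000783).

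The extrinsic, death-receptor route was lower at several steps. TNFSF10, the death ligand TRAIL, stood at 77.3 and 99.3 CPM in GR2 and at 13.5 and 8.60 CPM in GR3, 7.99-fold lower (-2.91 ± 0.37, adjusted p = 2.62e-05). CASP10, an initiator caspase of the receptor complex, was 11.2-fold lower, at 9.88 and 4.69 CPM against 80.4 and 82.9 CPM (-3.39 ± 0.29, adjusted p = 7.02e-07). CASP8, the other initiator, was 1.79-fold lower, at 16.2 and 14.7 CPM against 29.1 and 26.2 CPM (-0.80 ± 0.13, adjusted p = 0.000319). CFLAR, which encodes the inhibitor FLIP of the same complex, was 2.13-fold lower, at 26.9 and 30.2 CPM against 57.7 and 63.8 CPM (-1.06 ± 0.15). Ligand, initiators and their inhibitor were thus lower together. Downstream, CYCS, the cytochrome c gene, was 2.79-fold higher (50.03 and 81.3 CPM against 21.3 and 25.7 CPM, 1.41 ± 0.30). Over the lists, 2 of 16 caspases and inhibitors were higher and 5 lower, and 1 of 11 death receptors and ligands was higher and 3 lower. With a library left out, 3 or 4 of the caspases and 2 of the receptors and ligands were lower, and 0 to 2 of the latter higher.

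**Figure D3:**
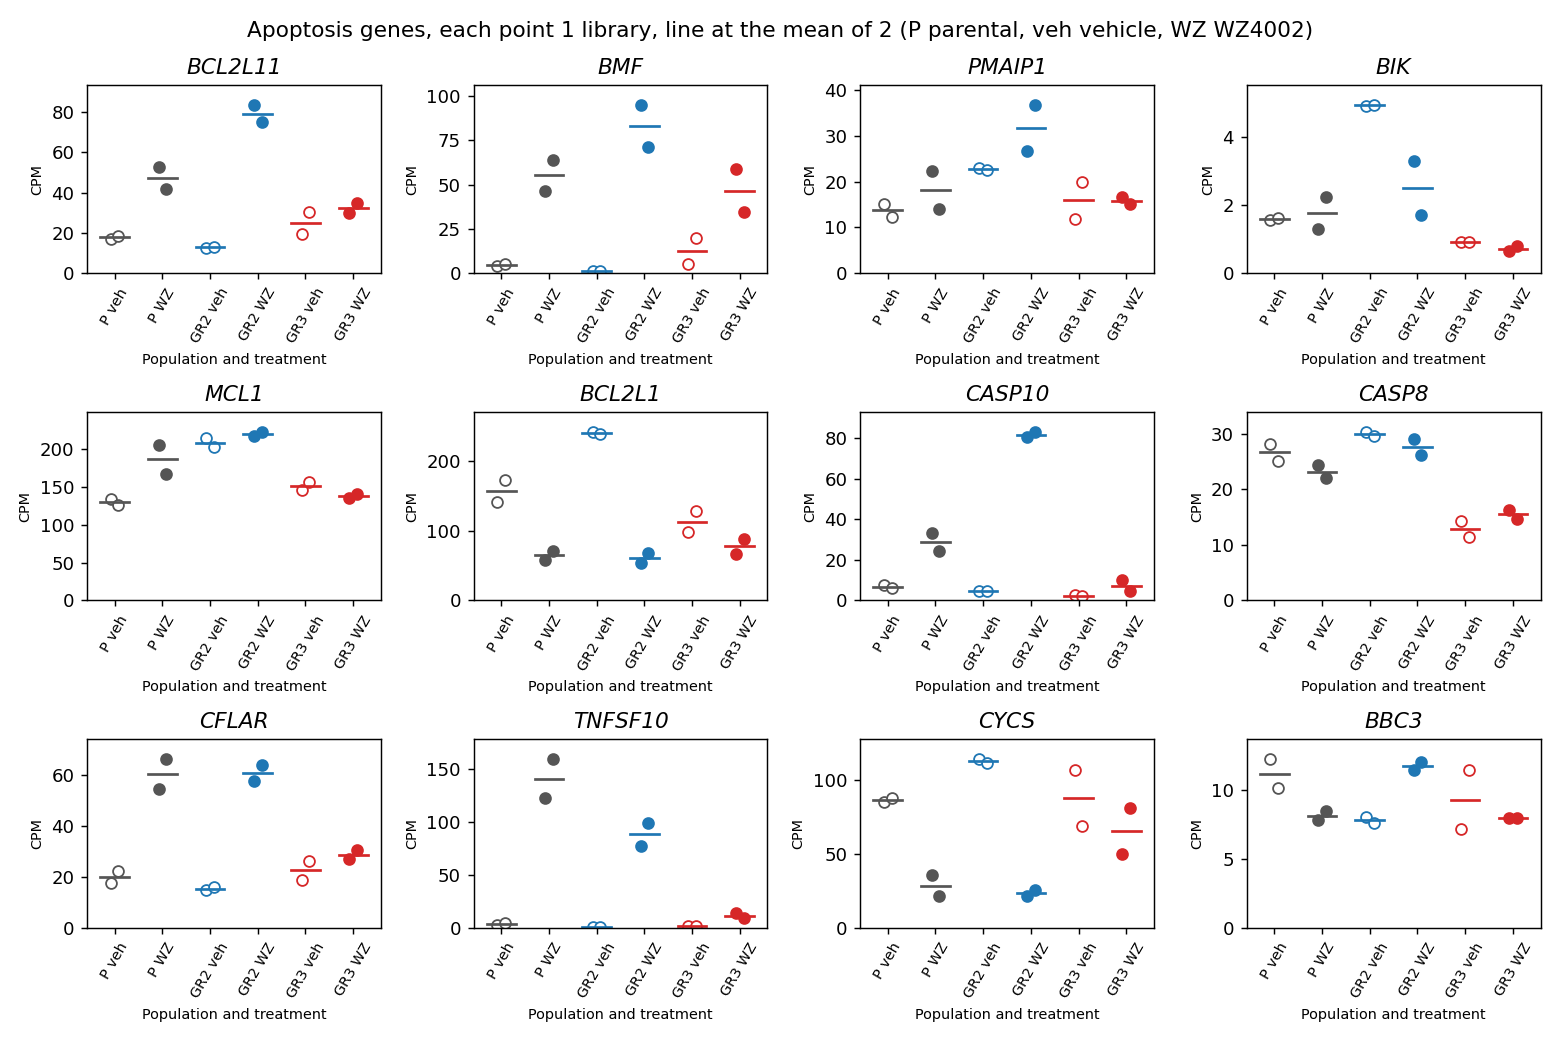
Deposited CPM (linear axes from 0) of 12 apoptosis genes, 1 point per library and a line at the mean of 2, for parental PC9, GR2 and GR3 in vehicle (open) and WZ4002 (filled). BCL2L11 stands at 75.2 to 83.5 CPM in GR2 and at 29.9 to 34.9 CPM in GR3 under WZ4002, and CASP10 and TNFSF10 also lie higher in GR2 there.

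Of 24 DNA replication genes tested, 13 were higher and 0 lower in GR3 under the inhibitor, with a median of 0.96. Without the first GR3 library 1 passed, without the second GR2 library 2, and with only the 8 GR2 and GR3 libraries fitted 3. With a replicate block 14 passed, and 16 with a term for the 3 runs into which the columns of the deposited table fall, the first libraries of GR2 and GR3 lying in the first run and the second libraries in the second. MCM6, a subunit of the replicative helicase, stood at 14.3 and 9.18 CPM in GR2 and at 35.4 and 25.4 CPM in GR3 (1.31 ± 0.36), so that the first library was the higher in both populations. It did not pass in those 3 smaller fits (adjusted p up to 0.115) and passed with the term for runs (adjusted p = 0.000781). Of 21 mitosis genes 0 passed in limma, and 0 had an unadjusted p under 0.05. Their median of 0.71 became -0.17 without the first GR3 library and -0.09 without the second GR2 library, and 0 to 2 passed with a library left out. With the term for runs 7 were higher. CCNA2, which encodes cyclin A2, gave 1.23 (0.22 to 2.23 with a library left out, adjusted p = 0.0117 with the term for runs). CDK1, the mitotic kinase, gave 1.16 (0.13 to 2.19 with a library left out, adjusted p = 0.0113 with the same term). Of 20 cyclins, CDK inhibitors and quiescence genes, 5 were higher and 4 lower. CDKN1C, the imprinted inhibitor p57, was higher, at 8.38 and 4.48 CPM against 0.67 and 0.22 CPM (2.33 ± 0.23), and RBL2, the pocket protein p130 of quiescent cells, was 2.09-fold higher, at 98.2 and 94.2 CPM against 47.3 and 44.7 CPM (1.05 ± 0.16).

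Receptor kinases that can act in place of EGFR, with their ligands, were higher for 8 of 24 and lower for 3. Beside AXL and GAS6, the second AXL-family ligand PROS1, protein S, was 9.91-fold higher (10.6 and 8.37 CPM against 1.38 and 0.53 CPM, 2.45 ± 0.33). FGFR1, a fibroblast growth factor receptor, was 4.47-fold higher, at 39.2 and 33.3 CPM against 8.45 and 7.75 CPM (2.03 ± 0.19, adjusted p = 1.67e-06). MET, the hepatocyte growth factor receptor, did not pass under WZ4002, at 46.3 and 35.6 CPM against 46.5 and 37.4 CPM (-0.04 ± 0.21, 95% interval -0.49 to 0.42), although in vehicle it was lower in GR3 (-1.93 ± 0.21, adjusted p = 6.69e-06). For IGF1R, the insulin-like growth factor receptor, the difference was 0.01 with an interval of -0.39 to 0.41.

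Junction and polarity genes of epithelium were lower in GR3 for 16 of 28 and higher for 1, with a median of -0.50, and 11 to 14 were lower with a library left out. GRHL1, a grainyhead transcription factor of epithelial barriers, stood at 89.4 and 107 CPM in GR2 and at 7.86 and 9.37 CPM in GR3, 11.4-fold lower (-3.37 ± 0.16, adjusted p = 1.12e-09). Its relative GRHL2 was the 1 gene higher in GR3, at 182 and 197 CPM against 90.0 and 80.1 CPM (1.15 ± 0.15, adjusted p = 2.91e-05). PROM2, a prominin of plasma membrane protrusions, was 4.13-fold lower (150 and 178 CPM against 596 and 761 CPM) and CLDN3, a tight junction claudin, 4.36-fold lower (6 and 6.64 CPM against 22.99 and 32.2 CPM). CDH1, which encodes E-cadherin, did not pass, at 268 and 289 CPM against 260 and 229 CPM (0.19 ± 0.17, adjusted p = 0.411).

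Mesenchymal genes were higher for 7 of 13 and lower for 0, with a median of 1.23, and 4 were higher without the first GR2 library. CALD1, the actin-binding caldesmon, stood at 101 and 85.2 CPM in GR2 and at 301 and 608 CPM in GR3 (2.19 ± 0.30, adjusted p = 4.69e-05). LOXL2, a collagen-crosslinking oxidase, was 4.38-fold higher (50.3 and 65.6 CPM against 16.8 and 9.68 CPM) and SNAI2, the repressor SLUG, 2.87-fold higher (35.1 and 49.4 CPM against 15.4 and 14.0 CPM). SPARC, a matricellular protein, was at 9.29 and 7.65 CPM against 0.53 and 0.53 CPM (2.62 ± 0.22). VIM, the vimentin gene, was at 4.35 and 1.49 CPM against 0.71 and 0.64 CPM (1.124 ± 0.46, adjusted p = 0.0731), and ZEB1, an E-cadherin repressor, lay under 0.5 CPM in all 4 libraries. The named genes that passed are thus matrix and contractile genes and SNAI2, while CDH1, VIM and ZEB1 did not pass.

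Keratins and other markers of basal and mucosal epithelium were lower for 10 of 16 and higher for 0, with a median of -1.26. Beside KRT13, KRT5, the basal keratin, was 7.26-fold lower, at 41.1 and 27.1 CPM against 242 and 253 CPM (-2.85 ± 0.33, adjusted p = 1.04e-05). KRT16, a keratin of activated epidermis, was 5.50-fold lower, at 36.6 and 57.1 CPM against 247 and 268 CPM. KRT4, the partner of KRT13 in mucosa, was 8.97-fold lower, at 11.5 and 18.3 CPM against 69.5 and 198 CPM. The simple-epithelial keratin KRT8 differed by -0.19 and KRT19 by -0.18, and neither passed. Related keratins share sequence, so their reads could in part have been split.

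Mucins and secreted glycoproteins were lower for 12 of 17 and higher for 0, with a median of -1.48, and 8 were lower without the second GR2 library. MUC1, a membrane mucin, stood at 196 and 209 CPM in GR2 and at 54.0 and 81.4 CPM in GR3 (-1.59 ± 0.33, adjusted p = 0.00158). MUC5B, a gel-forming airway mucin, measured 9.65 and 24.5 CPM against 1.60 and 1.34 CPM (-2.74 ± 0.66) and lost its call without the second GR2 library (adjusted p = 0.0715). Alveolar and foregut genes were lower for 6 of 13 and higher for 1. HOPX, a marker of alveolar type 1 cells, was lower, at 0.22 and 0.39 CPM against 6.53 and 7.55 CPM (-2.62), and FOXA1, a pioneer factor of lung epithelium, was 2.68-fold lower (37.6 and 27.2 CPM against 90.5 and 83.2 CPM). ABCA3, the lipid transporter of surfactant, was higher, at 12.3 and 7.65 CPM against 1.60 and 2.80 CPM (1.77 ± 0.25).

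Of 32 collagens and matrix proteins tested, 16 were higher and 2 lower, with a median of 0.64, and 10 were higher without the second GR2 library. The 2 lower genes were LAMA4 and PXDN. Next to COL5A1, COL4A4, a collagen IV chain, was 16.8-fold higher (19.8 and 27.7 CPM against 0.92 and 1.90 CPM, 3.37 ± 0.61) and COL12A1, a collagen that binds fibrils, 3.57-fold higher (174 and 259 CPM against 53.1 and 68.1 CPM, 1.80 ± 0.38). COL27A1, a cartilage collagen, was at 7.84 and 7.42 CPM in GR3 and at 0.21 and 0.03 CPM in GR2 (2.95 ± 0.24).

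Integrins, the receptors of matrix, had counts not far from the shares over all genes (16.2% higher, 17.2% lower). Of 15 tested, 4 were higher and 2 lower, and 2 were higher without the second GR2 library. ITGA6, a chain of laminin receptors, was 4.31-fold higher (63.4 and 57.8 CPM against 17.4 and 10.7 CPM, 2.07 ± 0.35), while ITGB6, the epithelial chain that activates latent TGF-beta, was 6.29-fold lower (21.0 and 11.4 CPM against 98.5 and 105 CPM, -2.64 ± 0.32). Of 22 proteases and inhibitors, 3 were higher and 7 lower. PLAT, tissue plasminogen activator, was 11.3-fold lower, at 31.5 and 42.4 CPM against 342 and 494 CPM (-3.46 ± 0.33), and SERPINB5, the epithelial serpin maspin, 3.45-fold lower, at 114 and 83.1 CPM against 340 and 341 CPM (-1.79 ± 0.26).

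Targets of YAP and TEAD, the transcription factors of the Hippo pathway, were higher for 13 of 20 and lower for 0, with a median of 0.79, and 8 to 12 were higher with a library left out. The list includes AXL. CRIM1, a BMP-binding membrane protein, stood at 169 and 194 CPM in GR2 and at 444 and 513 CPM in GR3 (1.40 ± 0.17, adjusted p = 1.85e-05). AJUBA, a LIM protein that restrains the LATS kinases, was 3.05-fold higher, at 43.1 and 50.9 CPM against 17.03 and 13.7 CPM (1.55 ± 0.23). F3, tissue factor, was at 128 and 250 CPM against 64.6 and 70.8 CPM (1.39 ± 0.25), and at 0.91 without the second GR3 library. CCN1, a matricellular target often used as a YAP readout, was at 81.3 and 252 CPM against 63.3 and 67.6 CPM, and its difference of 1.119 became 0.31 without the second GR3 library and did not pass there or without either GR2 library (adjusted p up to 0.527).

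Of 27 TGF-beta and BMP genes, 8 were higher and 7 lower, and 5 were higher without the second GR3 library. The secreted BMP4 was 7.40-fold higher (28.0 and 17.6 CPM against 2.91 and 3.25 CPM, 2.51 ± 0.25), and FST, which encodes the activin antagonist follistatin, was at 10.5 and 6.54 CPM against 0.18 and 0.20 CPM (2.97 ± 0.31). On the TGF-beta side, SMAD3, a signal transducer, was 3.14-fold lower (48.8 and 36.8 CPM against 146 and 123 CPM) and LTBP3, a binder of latent TGF-beta, 3.21-fold lower (172 and 204 CPM against 541 and 663 CPM). Ligand and antagonist of the BMP and activin branches were higher while these 2 TGF-beta components were lower.

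WNT genes were higher for 14 of 29 and lower for 5, with a median of 0.40, and 1 to 3 were lower with a library left out. Among ligands, WNT9A was 13.9-fold higher (38.3 and 38.1 CPM against 3.16 and 2.35 CPM, 3.39 ± 0.31, adjusted p = 1.05e-06) and WNT5A, a ligand of non-canonical signalling, 3.71-fold higher (86.2 and 98.9 CPM against 21.9 and 28.1 CPM, 1.86 ± 0.29). Secreted inhibitors went both ways. SFRP1 was at 59.1 and 172 CPM against 19.1 and 28.0 CPM (2.08 ± 0.44, and 1.32 without the second GR3 library), and DKK1 was 4.24-fold lower, at 13.5 and 10.4 CPM against 68.8 and 32.6 CPM (-1.91 ± 0.38). Notch genes were lower for 8 of 14 and higher for 0, with a median of -0.65, and 4 were lower without the first GR3 or the second GR2 library. The receptor NOTCH3 was 6.68-fold lower (60.2 and 48.2 CPM against 319 and 404 CPM, -2.72 ± 0.23, adjusted p = 6.52e-07). Its transcriptional targets HEY1 (1.19 and 0.90 CPM against 5.25 and 11.8 CPM) and HES1 (27.6 and 21.5 CPM against 70.0 and 63.3 CPM) were lower as well, by 8.18-fold and 2.72-fold.

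Of 23 interferon-stimulated genes, 5 were higher and 4 lower, not far from the shares over all genes (16.2% higher, 17.2% lower). The antiviral GTPase MX1 was 6.29-fold higher (16.0 and 11.1 CPM against 2.48 and 1.82 CPM) and the tetherin gene BST2 4.82-fold higher (19.2 and 16.3 CPM against 3.34 and 4.03 CPM). IRF1, a transcription factor of the interferon response, was 3.40-fold lower, at 24.6 and 25.2 CPM against 81.8 and 87.4 CPM (-1.72 ± 0.23, adjusted p = 3.14e-05). In MHC class I presentation, 5 of 17 were higher and 1 lower, with HLA-B 4.69-fold higher (95.6 and 125 CPM against 24.8 and 22.3 CPM, 2.17 ± 0.28) and B2M, the shared light chain, at 0.26 (adjusted p = 0.233). Between 2 and 7 were higher with a library left out. CD74, the invariant chain of MHC class II and one of the leukocyte markers, stood at 0.96 and 0.59 CPM in GR2 and at 13.0 and 8.70 CPM in GR3 (2.72 ± 0.32). Classical HLA genes are polymorphic and close copies, so their counts depend on mapping.

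Of 13 checkpoint ligands, 3 were lower and 0 higher, namely VTCN1, ICOSLG, the ligand of ICOS (4.33 and 3.40 CPM against 18.3 and 19.6 CPM), and NT5E, the adenosine-forming CD73 (31.5 and 52.7 CPM against 99.6 and 124 CPM). Of 23 NF-kB feedback and cytokine genes, 2 were higher and 6 lower (1 or 2 and 4 or 5 with a library left out). TNFAIP2, induced by tumour necrosis factor, was 3.67-fold lower, at 702 and 731 CPM against 2656 and 2608 CPM (-1.88 ± 0.26, adjusted p = 5.27e-05).

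Amino acid uptake showed a clear pair. SLC7A5, the light chain of the leucine carrier LAT1, stood at 60.3 and 52.2 CPM in GR2 and at 434 and 340 CPM in GR3, 6.89-fold higher (2.76 ± 0.36, adjusted p = 3.48e-05). Its heavy chain SLC3A2 was 2.46-fold higher, at 171 and 169 CPM against 69.5 and 68.2 CPM (1.29 ± 0.27). The 2 chains of 1 transporter were thus higher together. RNA of ATF4, a factor of the integrated stress response known to induce them, was 2.54-fold lower, at 101 and 103 CPM against 238 and 279 CPM (-1.33 ± 0.13, adjusted p = 2.04e-06). ATF4 protein was not measured, and its part in the levels of the 2 chains was not tested. Over 22 genes of the integrated stress response and serine synthesis, 3 were higher and 3 lower (1 or 2 lower with a library left out). Over 20 amino acid carriers 5 were higher and 4 lower (2 lower without the second GR2 library).

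Glucose metabolism differed at single enzymes. HK2, the inducible hexokinase, was 7.87-fold lower (27.1 and 35.0 CPM against 189 and 299 CPM, -2.91 ± 0.25), and ENO1, enolase, 2.25-fold higher (828 and 875 CPM against 395 and 361 CPM, 1.17 ± 0.22), within a list of 29 with 4 higher and 2 lower (1 lower without the second GR3 or the first GR2 library). In redox defence 7 of 24 genes were higher and 4 lower, and 2 were higher without the second GR3 library. TXNRD1, thioredoxin reductase, was 2.04-fold higher (1811 and 2117 CPM against 1004 and 922 CPM, 1.02 ± 0.16). The glutathione peroxidases GPX2 (89.2 and 79.7 CPM against 254 and 261 CPM) and GPX4 (87.2 and 84.2 CPM against 220 and 215 CPM), the latter a guard against ferroptosis, were 3.05-fold and 2.54-fold lower.

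Of 31 lysosome and autophagy genes, 2 were higher and 7 lower (1 higher without either GR2 library). CTSL, cathepsin L, was 9.26-fold lower, at 32.0 and 32.8 CPM against 209 and 391 CPM (-3.10 ± 0.32), and CTSD, cathepsin D, 2.27-fold lower, at 141 and 180 CPM against 340 and 387 CPM. Cholesterol synthesis had 3 of 19 lower, near the 17.2% over all genes, and 0 higher. SREBF2, its master regulator, was among the 3 (182 and 189 CPM against 352 and 420 CPM, -1.05 ± 0.19). Of 24 aldehyde dehydrogenase and drug-tolerance genes, 6 were higher and 4 lower. IGFBP5, a binder of insulin-like growth factors, was 9.43-fold higher, at 968 and 1505 CPM against 94.5 and 168 CPM (3.25 ± 0.70, adjusted p = 0.0021).

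Patterning genes differed in both directions. Of 28 homeobox genes, 12 were lower and 6 higher, and 1 was higher without the second GR2 library and 2 without the first GR3 library, while 8 were lower without the second GR3 library. HOXA3, a gene of anterior patterning, was 5.24-fold lower (18.2 and 11.4 CPM against 85.9 and 69.4 CPM, -2.34 ± 0.27) and IRX3, an Iroquois factor, 5.32-fold lower (26.9 and 17.9 CPM against 112 and 126 CPM, -2.39 ± 0.21). Among 26 semaphorins, plexins and ephrins, 8 were lower and 4 higher, and 5 to 7 and 1 to 3 with a library left out. SEMA3E, a secreted ligand of plexin D1, was 11.7-fold lower, at 4.20 and 3.14 CPM against 38.3 and 47.8 CPM (-3.24 ± 0.35). Of 16 heat-shock and handling genes, 5 were higher and 3 lower, with HSPH1, a heat-shock protein of the HSP110 class, at 140 and 172 CPM against 58.2 and 68.6 CPM (1.28 ± 0.16). Without the second GR3 library 1 of them was higher, and without the first GR3 or the second GR2 library 0 were lower. The part of handling in the other results was not tested.

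The same 2 populations were also compared in vehicle, in 4 other libraries. Both comparisons come from 1 fit of all 22 libraries and share its estimate of spread, so their calls are not independent. There 5132 genes passed (33.1%), 2415 higher (15.6%) and 2717 lower (17.5%) in GR3. Of the genes passing under WZ4002, 2558 also passed in vehicle, 2324 in the same direction (44.9% of the WZ4002 calls and 45.3% of the vehicle calls) and 234 in the opposite one. Among genes passing under WZ4002, 78.2% had the same sign in vehicle, against 64.3% of all genes tested, and their median absolute difference was 0.79 under WZ4002 and 0.49 in vehicle. GLI2 (3.33), COL5A1 (3.40), AOC1 (4.96), CEACAM6 (-5.73), KRT13 (-4.90) and PXDN (-6.73) differed in vehicle too. CDK14 (0.20), VTCN1 (0.42), PIGR (-0.07), SEMA5B (0.04), BCAS1 (-0.59) and S100A8 (-0.19) did not pass there. Both vehicle GR2 libraries belong to the last run of columns of the deposited table, whose columns fall into 3 runs that the labels do not explain. Parental PC9 with WZ4002 is the 1 group split between the second and the last run, so a term for these runs rests there on that pair. With it 3567 genes passed in vehicle, and 2995 passed without the first vehicle GR2 library.

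**Figure D4:**
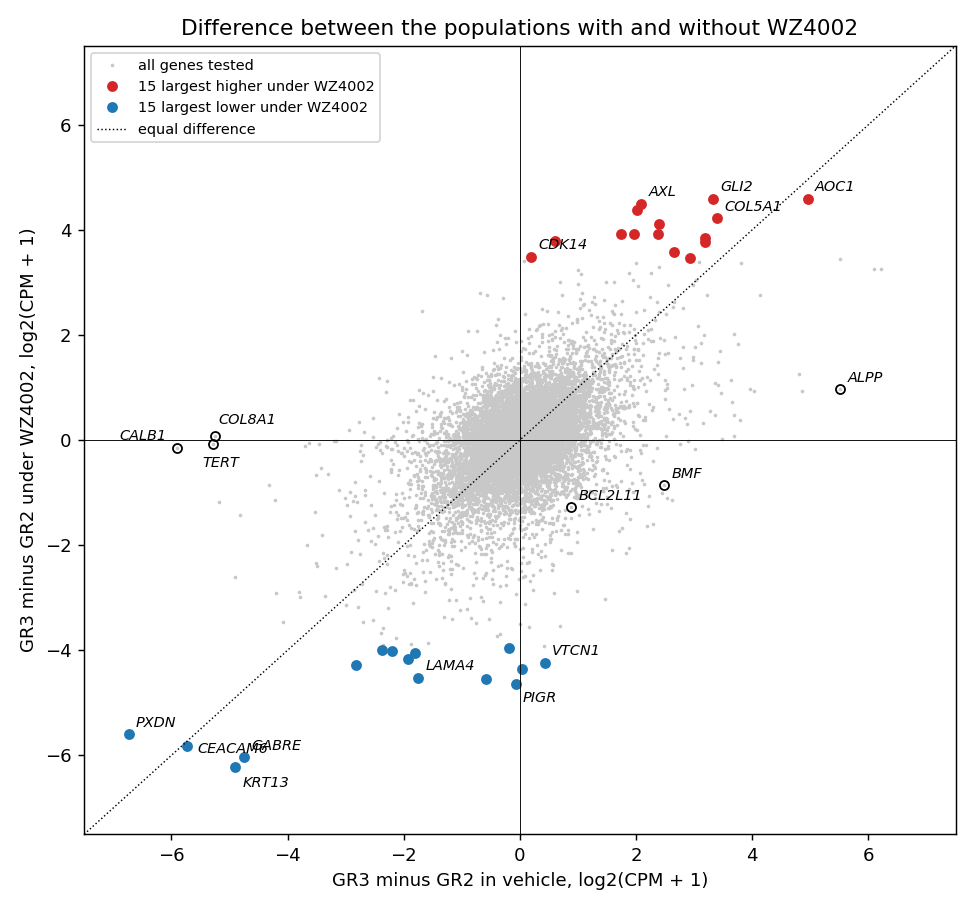
Difference GR3 minus GR2 in log2(CPM + 1) under WZ4002 (vertical axis) against vehicle (horizontal axis) for 15485 genes, with the 15 largest in each direction coloured and a dotted line at equal differences. AOC1 lies near that line at 4.96 and 4.60, while VTCN1 lies at 0.42 in vehicle and -4.23 under WZ4002.

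Whether a difference depended on the inhibitor was tested as the difference of the WZ4002 responses, GR3 minus GR2. It passed for 2103 genes (13.6%), 1050 positive (6.78%) and 1053 negative (6.8%), and for 1005 without the first vehicle GR2 library. Of the 5179 genes passing under WZ4002, 1249 (24.1%) also passed this test. AXL dropped with WZ4002 in GR2, from 31.2 and 30.6 CPM to 5.36 and 2.69 CPM (-2.72 ± 0.27), and changed by -0.31 ± 0.27 in GR3 (adjusted p = 0.45), a difference of responses of 2.41 ± 0.39 (adjusted p = 0.000865). SLC7A5 behaved alike, from 810 and 741 CPM in vehicle to 60.3 and 52.2 CPM in GR2, with a difference of responses of 3.32 ± 0.52 (adjusted p = 0.000647). CDK14 changed by -1.98 ± 0.31 in GR2 and by 1.31 ± 0.31 in GR3, a difference of responses of 3.30 ± 0.44. All 3 genes dropped with WZ4002 in GR2.

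Other genes had a higher response to WZ4002 in GR2 than in GR3, that is, a negative difference of responses. VTCN1 went from 0.34 and 0.80 CPM in vehicle to 353 and 461 CPM in GR2 and from 1.40 and 0.81 to 27.1 and 15.4 CPM in GR3, a difference of responses of -4.66 ± 0.75 (adjusted p = 0.00083). MUC1 (-3.88 ± 0.47, adjusted p = 9.72e-05), TNFSF10 (-3.50 ± 0.53), IRF1 (-3.43 ± 0.32, adjusted p = 1.57e-05), DEPP1 (-3.43 ± 0.51), PIK3IP1 (-3.08 ± 0.65), CLDN3 (-2.93 ± 0.39), CASP10 (-2.55 ± 0.42), GRHL1 (-2.07 ± 0.22), SESN1 (-1.83 ± 0.28), INSR (-1.75 ± 0.29) and CFLAR (-1.58 ± 0.21) also passed. MUC1, IRF1 and DEPP1 were higher in GR3 in vehicle (2.29, 1.70 and 1.76) and lower in it under WZ4002. Whole lists also had other counts in vehicle. Redox defence had 0 higher and 15 lower of 24 in vehicle, with 11 positive and 0 negative differences of responses, and MHC class I had 13 higher and 1 lower of 17 in vehicle, with 0 positive and 6 negative.

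Parental PC9 under WZ4002 (2 libraries) gave a reference level. Its mean log2(CPM + 1) was nearer to GR2 than to GR3 for 66.2% of all genes tested, for 77.1% of those passing and for 82.9% of those passing by at least 2-fold. Parental values of KRT13 (1489 and 2710 CPM), CASP14 (1402 and 1808 CPM) and LAMA4 (326 and 276 CPM) lay near GR2, as did AXL at 5.94 and 8.81 CPM and GLI2 at 0.03 and 0.23 CPM. AOC1, at 33.2 and 222 CPM, and STXBP6, at 8.88 and 25.7 CPM, lay nearer GR3. For BCL2L11 the parental 52.6 and 42.0 CPM fell between GR3 and GR2.

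Neighbouring genes were examined as runs of 25 tested genes in the order of the RefSeq annotation, for 14387 genes in 568 runs, with no test. Run medians lay between -0.38 and 0.39 from the 5th to the 95th percentile. The lowest run, from FAM110C to GRHL1, had a median of -1.20 under WZ4002 and -1.2975 in vehicle, with 17 of its genes lower under WZ4002 and 23 in vehicle. Against parental cells under WZ4002, its median was -1.20 in GR3 and 0.04 in GR2, comparisons that share the parental libraries. The run from COPS9 to D2HGDH followed at -1.0044 and -0.82, and that from MPST to PLA2G6 at -0.84 and -0.81. The run from FBXO7 to TST was at -0.81 under WZ4002 and at 0.07 in vehicle. On chromosome 18, the run from ATP8B1 to SERPINB7 was at -0.76 and -0.48, with 14 of its genes lower and 3 higher under WZ4002. The highest run, HCAR2 to ZNF664, stood at 0.61 and 0.54. In all, 15 runs lay below -0.5 under WZ4002, 10 of them in vehicle too, and 13 lay above 0.5, 5 of them in vehicle too. GRHL1, described above, is thus the last gene of the lowest run. Other genes described above can also lie in these runs, whose inner members are not named here.

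**Figure D5:**
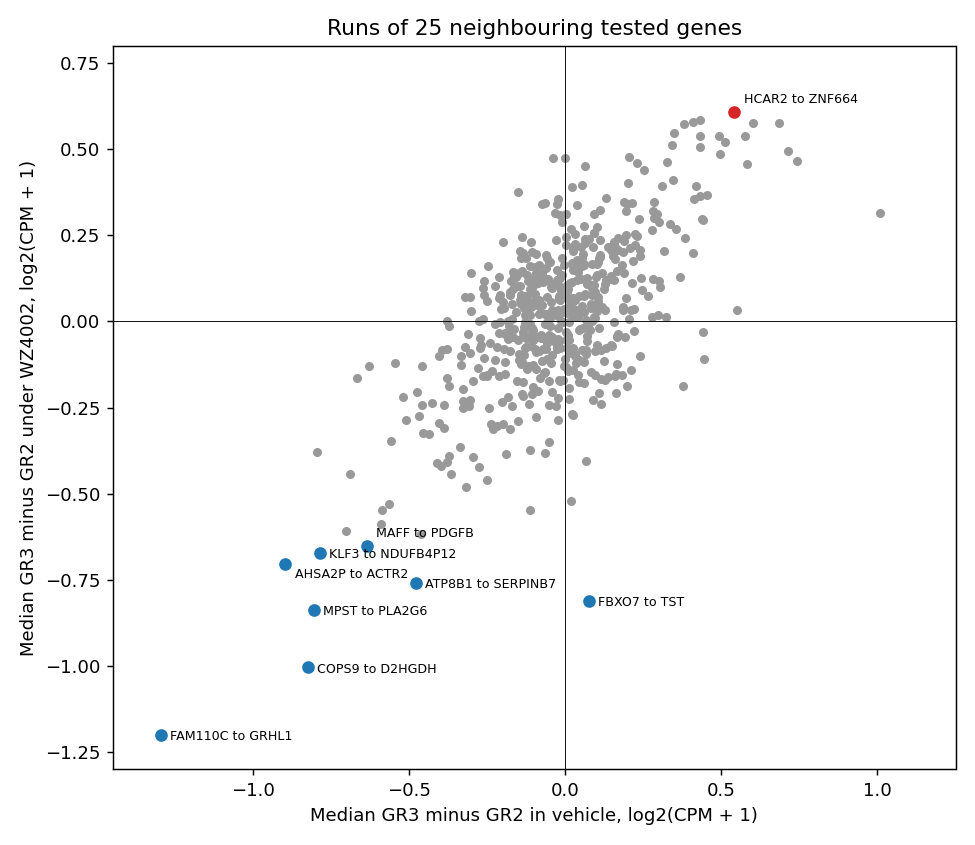
Median difference GR3 minus GR2 in log2(CPM + 1) of each run of 25 neighbouring genes under WZ4002 (vertical axis) against vehicle (horizontal axis). Most of the 568 runs lie near 0 on both axes, and the run from FAM110C to GRHL1 lies apart at -1.2975 in vehicle and -1.20 under WZ4002.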

How the data were processed

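RNA of PC9 cells and derivatives was sequenced as poly(A) libraries made with a strand-specific kit, per the labels' protocols. The authors deposited 1 table of CPM values for 17165 genes in 22 libraries of 11 groups, with 0 columns left unmapped, and 15958 genes carried a symbol. STAR, HTSeq and build hg19 are named, without versions, per the submitters' processing notes. CPM was read as log2(CPM + 1). Genes at 1 CPM or more in at least 2 libraries were kept (15485, with 1680 left out), and 11 group means were fitted to all 22 libraries with limma 3.58.1 (empirical Bayes with a trend, R 4.3.3, 11 residual and 4.80 prior degrees of freedom). P-values were adjusted by Benjamini-Hochberg within each comparison at a threshold of 0.05. Figures and summaries were made with Python 3.11.15, numpy 2.4.6, pandas 2.3.3 and matplotlib 3.10.9.

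The deposited values were whole multiples of the CPM of 1 read (0.0202 to 0.0423) within the rounding of 0.005 CPM for 100% of values, against a median of 32.0% to 40.5% at other steps. Reads rebuilt in this way served only for depth and for an alternative with limma-voom. The fit was tested on simulated data for GR3 against GR2 under WZ4002 (15485 genes, 200 changed, 5 runs), where 77.2% of 2-fold and 96.6% of 4-fold changes were recovered and 6.81% of calls were wrong. The simulated noise was normal, independent between libraries and of the same spread for a gene in all groups. In the real libraries the spread within a group ran from 0.10 log2 units in vehicle GR2 to 0.33 in vehicle GR3. The simulated shares therefore need not hold for the real calls.

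Genes were named if they were among the 15 largest differences in each direction (passing, mean of at least 5 CPM in GR2 or GR3, no overlap of libraries), among the 4 members of a list with the lowest p, among the 6 largest differences of responses in each direction, or among EGFR, DUSP6, BCL2L11, MCL1, BMF, PMAIP1, BBC3, AXL and MET. Other genes, such as DEPP1, MUC1, VIM and IGFBP5, were chosen after their values were seen, and some genes that these rules name are not reported here. The members and the 43 lists were chosen with earlier results of these data known. Promoters were matched by symbol. Alternatives covered the pseudocount, the filter, scaling, the libraries fitted, a replicate block, left-out libraries and a term for runs of columns.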

Additional observations from a re-analysis of the deposited data

Results flagged for a closer look

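The difference of WZ4002 responses, GR3 minus GR2, picked out 12 genes, the 6 largest estimates in each direction among genes that passed its test and reached a mean of 5 CPM in at least 1 of the 4 groups, of which 11 are described. Both vehicle GR2 libraries lie in the last run of columns of the deposited table. With a term for runs, chosen after seeing the data, 11 of these 11 genes passed, with estimates of 3.79 to 8.59 in the positive and -5.88 to -2.82 in the negative direction. These 11 were chosen as the largest estimates. Of 92 passing genes among 98 followed singly for this difference, 25 did not pass with the term for runs. The step to the last run rests in that fit on 1 pair of libraries, parental PC9 with WZ4002.

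Among positive estimates, vehicle GR2 stood apart for CALB1, COL8A1, TERT and SLC22A20P, but not for MAP2. CALB1, the calcium buffer calbindin, gave 5.76 ± 1.42 (adjusted p = 0.0139 in limma). It measured 278 and 275 CPM in vehicle GR2, 3.58 and 7.86 CPM in GR2 with WZ4002, 0.56 and 12.7 CPM in vehicle GR3 and 2.43 and 8.68 CPM in GR3 with WZ4002, and it did not pass without the second WZ4002 GR3 or the first vehicle GR2 library (adjusted p up to 0.0584). COL8A1, a short-chain collagen, gave 5.33 ± 0.49, at 182 and 179 CPM in vehicle GR2 and between 0.95 and 5.95 CPM in the other 6 libraries. TERT, the catalytic subunit of telomerase, gave 5.22 ± 0.39, at 58.9 and 58.1 CPM in vehicle GR2 and at most 0.56 CPM elsewhere. SLC22A20P, a transporter pseudogene, gave 4.01 ± 0.35, at 47.5 and 49.0 CPM in vehicle GR2 and at most 2.18 CPM elsewhere. MAP2, a microtubule protein of neurons, gave 4.14 ± 0.59. It dropped with WZ4002 in GR2 from 36.8 and 32.8 CPM to 6.10 and 2.01 CPM and stood at 9.83 and 10.4 CPM in vehicle and 29.5 and 20.1 CPM with WZ4002 in GR3.

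Among negative estimates, VTCN1 gave -4.66 ± 0.75, PIGR -4.56 ± 0.45 and SEMA5B -4.40 ± 0.59, with a higher response in GR2 than in GR3. PIGR and SEMA5B were close to silent in GR3 with WZ4002, so no rise is claimed for them there. SEMA5B did not pass with limma-voom (-6.84, adjusted p = 0.0614) and gave -2.82 with the term for runs. PLA2G2F, a secreted phospholipase, gave -4.32 ± 0.67, reaching 45.6 and 67.4 CPM in GR2 with WZ4002 against 1.49 and 4.66 CPM in GR3. ALPP, placental alkaline phosphatase, gave -4.54 ± 0.77, rising from 2.48 and 2.41 to 464 and 966 CPM in GR2 and from 96.7 and 254 to 1191 and 1458 CPM in GR3, and its reads are uncertain because of the near-identical copy ALPG. ADORA1, an adenosine receptor, gave -4.49 ± 0.45. It rose in GR2 from 10.7 and 10.7 to 20.8 and 23.5 CPM and dropped in GR3 from 36.7 and 26.3 to 2.43 and 1.34 CPM.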

How the results depend on the processing

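The count of genes passing under WZ4002 (5179) lay between 4376 and 5493 with another pseudocount, filter, scaling or choice of libraries, with limma-voom on rebuilt reads or with a replicate block, and was 6262 with a term for the runs of columns, an alternative chosen after seeing the data. None of the 5179 genes changed sign in any of these fits. The filter, the choice of libraries, the replicate block and the term for runs leave each estimate as it was. The sign could therefore change only with the pseudocount, the scaling or limma-voom. With only the 4 WZ4002 libraries of GR2 and GR3 fitted, 78.1% of the 5179 calls were kept. With a WZ4002 library left out the count ranged from 3258 to 3971. Of 191 passing genes among 223 followed singly, 156 passed with each of these libraries left out and 35 did not. In vehicle the count of 5132 ranged from 2995 to 4732 with a library left out, and the 2717 lower genes became 1802 with the term for runs of columns. The split in vehicle was 2555 higher and 2552 lower with median-of-ratios scaling, and 2616 and 2492 with TMM. The difference of responses passed for 1005 to 2888 genes with a library left out, against 2103. For CD74 that difference was -0.0086 with a pseudocount of 0.1 and -1.52 with limma-voom, and for CDKN1C it was -0.32 with limma-voom, each against a positive value, and the cause was not tested. Deviations of same-numbered libraries correlated at 0.473 between GR2 and GR3 under WZ4002. The first libraries of both lie in the first run of columns and the second libraries in the second. Over the 55 pairs of groups the correlation was over 0.1 in 20 (-0.46 to 0.63). The main fit held no pairing by replicate number. With the replicate block 5493 genes passed under WZ4002, 5426 in vehicle and 2461 in the difference of responses. The planned edgeR and DESeq2 tests were not run, because the deposited values are CPM. Depth limits genes near 1 read per library, at 0.0202 to 0.0423 CPM.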

Other observations

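Promoter letters were counted in genes that passed by at least 2-fold, as shares with no test. The FOXO letters GTAAACA occurred in 30 of 684 promoters of lower genes (4.39%) and in 12 of 574 of higher genes (2.09%), against 2.34% of the promoters of tested genes. The AP-1 letters TGACTCA occurred in 5.12% of lower and 4.53% of higher genes, against 3.21%. The palindrome TGACGTCA of CREB and ATF factors occurred in 1.75% and 2.09%, against 3.23%, and the E-box CAGGTG in 24.7% and 19.3%, against 19.03%. Each motif was searched on both strands.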
